A study of Chlamydomonas reinhardtii with 12 samples.

Results

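The genes described here drive or carry out cell division and DNA replication in the green alga Chlamydomonas reinhardtii. They were chosen by gene ID as a list of 10: the cyclin-dependent kinases CDKA1 (Cre10.g465900), CDKB1 (Cre08.g372550) and CDKG1 (Cre06.g271100), the cyclins CYCA1 (Cre03.g207900) and CYCB1 (Cre08.g370400), the retinoblastoma-related protein MAT3 (Cre06.g255450), the ribonucleotide reductase subunits RIR1 (Cre12.g492950) and RIR2 (Cre12.g491050), and the helicase subunits MCM2 (Cre07.g338000) and MCM4 (Cre07.g316850). Of the 17741 gene IDs in the tables, 9 are on this list. No row carries the ID listed for CYCB1. A row with the near-identical ID Cre08.g370401 has counts in 1 of 12 libraries and was not used in its place. All 9 genes with a row passed the filter on low counts, which left 15286 genes for testing.

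RNA was sequenced from wild-type cells and from vip1-1, a strain that the series text describes as lacking inositol pyrophosphates, phosphate-rich signalling molecules. All 4 groups carry the strain label CC-1690 and were cultured in liquid TAP, an acetate-containing medium, at 25 °C and 50 µmol photons per square metre and second. The groups are fresh cultures taken at 24 h (control) and old cultures taken at 14 days (nutritional stress, or stress below) of each genotype, with 3 libraries a group. Stress therefore means an old culture, and culture age and nutrient state cannot be told apart. The labels call the libraries biological replicates without saying that they came from separate cultures, so p-values measure the spread between these libraries, which may be technical. The shared label does not settle whether vip1-1 was derived from CC-1690, so a difference between the genotypes could also include one between strain backgrounds, which was not tested. How the vip1-1 allele was made is not given in the sources used here, and the gene disrupted in it was not checked.

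Chlamydomonas divides by multiple fission: a cell grows for a long time and then goes through rapid rounds of DNA synthesis and mitosis, and cells held in light and dark cycles switch on the genes for these steps together around division. MAT3 restrains division until cells are large enough, and CDKG1 is a kinase that phosphorylates it and couples cell size to the number of divisions. CDKA1 promotes entry into division, and CDKB1, a kinase type of plants and green algae, is needed for mitosis and pairs with mitotic cyclins. Ribonucleotide reductase, made of a large subunit (RIR1) and a small subunit (RIR2), makes the DNA building blocks, and the MCM proteins form the ring that unwinds DNA at replication forks. In a bulk culture, a lower level can mean fewer cells in division or less RNA in each of them, and these cannot be told apart.

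Total counts per library ran from 9749837 to 28833327. A group of 6 abundant features took between 0.561% and 71.0% of the counts, and between 1299 and 20148 counts per library fell on the 9 genes. Wild-type control replicate 1 had the lowest total, the highest share on these features and the fewest genes with a count (11475). The library of wild-type control replicate 3 lay nearer to vip1-1 control replicate 3 (Spearman's rho 0.965 across genes) than to replicates 1 and 2 of its own group (0.851 and 0.913). It also lay nearer to vip1-1 control replicates 1 and 2 (0.944 and 0.946). Wild-type control replicate 2 likewise lay nearer to vip1-1 control replicates 1 and 2 (0.942 each) than to replicates 1 and 3 of its own group (0.9 and 0.913). Calls that change without single libraries are given with and without them. Levels are given as CPM, the share of a library's counts scaled to a common total, after scaling of library sizes with TMM (trimmed mean of M values). The word called is used for an adjusted p under 0.05 in the quasi-likelihood test of edgeR, with p-values adjusted by the Benjamini-Hochberg method over all 15286 genes. Where groups are said not to overlap, this only describes the libraries. The share of all genes whose groups did not overlap was not counted.

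**Figure D1:**
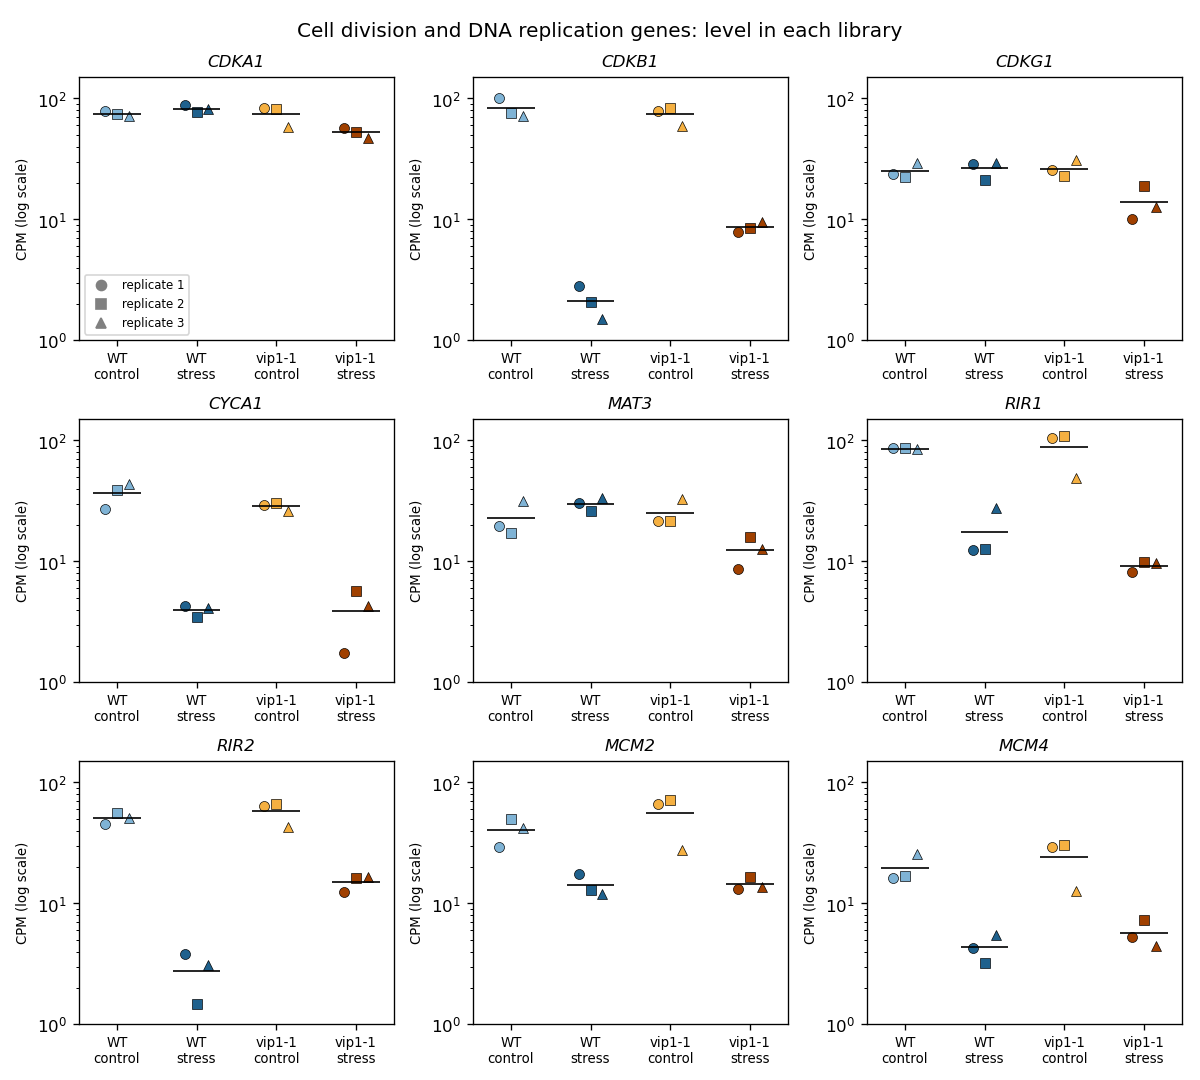
Level of each of the 9 genes (CPM, log scale) in every library of the 4 groups, with marker shape for the replicate number and a line for the group mean. In both genotypes CDKB1, CYCA1, RIR1, RIR2, MCM2 and MCM4 lie lower in every stress library than in every control library, while CDKA1 stays between 47.0 and 87.7 CPM in all 12 libraries. The share of all genes set apart in this way was not counted.

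In old cultures, CDKB1, CYCA1, RIR1, RIR2, MCM2 and MCM4 were lower than in fresh ones, by 2.85-fold (MCM2) to 38.2-fold (CDKB1) in wild-type and by 3.84-fold (MCM2) to 9.49-fold (RIR1) in vip1-1. In wild-type, 6 of the 9 genes fell under stress and 0 rose. Of all genes tested, 26.0% were called there, 12.1% lower and 13.9% higher. At an unadjusted p under 0.05 in edgeR's test, 0 of the 9 were higher and 6 lower, beside 20.7% and 17.3% of all genes. In vip1-1, 8 of the 9 fell and 0 rose, where 23.2% of all genes were called, 11.0% lower and 12.2% higher. At an unadjusted p under 0.05 in edgeR's test, 0 were higher there and 9 lower, beside 18.8% and 16.9% of all genes. DESeq2 called 6 lower in wild-type, where it called 33.7% of all genes, 14.5% lower. In vip1-1 it called 9 lower, where it called 31.4% of all genes, 14.3% lower. The median log2 fold change over the 9 genes was -2.18 in wild-type and -1.94 in vip1-1, beside medians of 0.19 and 0.09 over all genes.

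In wild-type the largest fall was that of CDKB1. It had 101, 76.1 and 71.8 CPM in wild-type control replicates 1 to 3 and 2.80, 2.10 and 1.501 CPM under stress, from 48, 17 and 16 counts. In vip1-1 it had 78.7, 83.5 and 59.1 CPM in control and 7.95, 8.54 and 9.45 CPM under stress. Stress and control libraries lay far apart in both genotypes, and the wild-type stress libraries were the lowest of all. The fall in wild-type was 38.2-fold (95% interval 24.1 to 60.5, log2 fold change -5.25, SE 0.30, adjusted p 3.43e-06). The fall in vip1-1 was 8.53-fold (95% interval 5.68 to 12.8, log2 fold change -3.09, SE 0.27, adjusted p 3.25e-05). Counted from the most negative fold change of all genes tested, CDKB1 ranked 202 in wild-type and 369 in vip1-1.

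CYCA1, an A-type cyclin that activates cyclin-dependent kinases, fell in both strains. Its level was 27.4, 38.6 and 43.6 CPM in wild-type control and 4.32, 3.45 and 4.13 CPM in wild-type stress. For vip1-1 the values were 29.1, 30.3 and 26.3 CPM, and in its stressed libraries 1.75, 5.72 and 4.28 CPM. The groups did not overlap in either genotype, and the lowest value, in vip1-1 stress replicate 1, rests on 30 counts (exact Poisson 95% interval 20.2 to 42.8, which covers counting error only). The log2 fold change was -3.20 (SE 0.39, adjusted p 0.000201) in wild-type and -2.85 (SE 0.38, adjusted p 0.000368) in vip1-1.

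The subunits of ribonucleotide reductase both fell in both strains. RIR1, the large subunit, had 86.0, 85.9 and 85.5 CPM in wild-type control and 12.4, 12.6 and 27.5 CPM in wild-type stress. In vip1-1 it had 105, 108 and 49.4 CPM in control and 8.18, 9.84 and 9.64 CPM under stress. It fell 4.90-fold in wild-type (log2 fold change -2.29, SE 0.37, adjusted p 0.00116) and 9.49-fold in vip1-1 (log2 fold change -3.25, SE 0.38, adjusted p 0.000187). Control and stress libraries did not overlap, and replicate 3 stood apart in wild-type stress (high) and in vip1-1 control (low). Without wild-type stress replicate 3 the wild-type fold change was -2.88 on the log2 scale (adjusted p 0.000436).

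RIR2, the small subunit, had 45.2, 56.5 and 51.1 CPM in wild-type control and 3.80, 1.48 and 3.10 CPM in wild-type stress. The second of these stress values rests on 12 counts, with an exact Poisson 95% interval of 6.20 to 21.0 counts. In vip1-1 it had 64.4, 66.5 and 43.2 CPM in control and 12.3, 16.3 and 16.6 CPM under stress. No stress library reached the control range. The fall was 17.9-fold in wild-type (log2 fold change -4.16, SE 0.35, adjusted p 2.22e-05) and 3.85-fold in vip1-1 (log2 fold change -1.94, SE 0.31, adjusted p 0.00119).

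The helicase subunit genes MCM2 and MCM4 also fell in both strains. MCM2 had 29.4, 49.5 and 42.0 CPM in wild-type control and 17.6, 12.8 and 12.01 CPM under stress, and 66.8, 71.9 and 27.8 CPM in vip1-1 control against 13.3, 16.5 and 13.6 CPM under stress. MCM4 had 16.4, 16.9 and 25.8 CPM in wild-type control and 4.32, 3.21 and 5.54 CPM under stress, and 29.3, 30.4 and 12.8 CPM in vip1-1 control against 5.32, 7.27 and 4.47 CPM under stress. Stress values were below control values in every case. The log2 fold changes of MCM2 were -1.51 (SE 0.35, adjusted p 0.00918) in wild-type and -1.94 (SE 0.35, adjusted p 0.00255) in vip1-1. Those of MCM4 were -2.18 (SE 0.39, adjusted p 0.00224) and -2.08 (SE 0.38, adjusted p 0.00263). With library totals in place of TMM scaling, the call of MCM2 in wild-type was lost (log2 fold change -1.58, adjusted p 0.153). In vip1-1 that scaling lost the calls of RIR2 (-2.06, adjusted p 0.0535), MCM2 (-2.02, adjusted p 0.068) and MCM4 (-2.13, adjusted p 0.0637).

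Replicate 3 stood apart among the vip1-1 control libraries. In vip1-1 control replicate 3, MCM2 was at 0.401 times the mean of replicates 1 and 2, MCM4 at 0.427, RIR1 at 0.463, RIR2 at 0.660, CDKA1 at 0.709 and CDKB1 at 0.729 times that mean. CDKG1 and MAT3 were instead higher there, at 1.28 and 1.503 times the mean of the other two. In wild-type control replicate 3, which resembled this library across all genes, MAT3 was also high, at 1.72 times the mean of replicates 1 and 2, and CDKG1 at 1.26 times, but MCM4 was at 1.56 and MCM2 at 1.06 times. The falls of the 6 genes above were called in both genotypes without any single library.

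The kinase CDKA1 and the size-control genes CDKG1 and MAT3 did not pass the test in wild-type. CDKA1 had 78.2, 74.5 and 71.5 CPM in wild-type control and 87.7, 77.1 and 81.5 CPM in wild-type stress, with overlapping groups. Its log2 fold change in wild-type was 0.14 (95% interval -0.29 to 0.56, adjusted p 0.645), an interval that ends at a 1.22-fold fall and a 1.48-fold rise. In vip1-1 it had 82.7, 81.3 and 58.1 CPM in control and 57.0, 53.2 and 47.0 CPM under stress, a log2 fold change of -0.50 (95% interval -0.93 to -0.07, adjusted p 0.0882). Control and stress did not overlap there, but the value missed the threshold. It passed it with DESeq2 (adjusted p 0.0143) and, in edgeR, without wild-type control replicate 1 (-0.64, adjusted p 0.0428), wild-type stress replicate 3 (-0.64, adjusted p 0.0316) or vip1-1 control replicate 3 (-0.65, adjusted p 0.0279).

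CDKG1 had 23.8, 22.6 and 29.3 CPM in wild-type control and 28.5, 21.2 and 29.5 CPM in wild-type stress, a log2 fold change of 0.06 (95% interval -0.53 to 0.65, adjusted p 0.889). In vip1-1 it went from 25.5, 22.7 and 30.8 CPM to 10.1, 18.9 and 12.6 CPM, without overlap (log2 fold change -0.93, SE 0.27, adjusted p 0.0284). MAT3 had 19.6, 17.1 and 31.6 CPM in wild-type control and 30.7, 26.3 and 33.3 CPM in wild-type stress, a log2 fold change of 0.39 (95% interval -0.29 to 1.07, adjusted p 0.381). Without wild-type control replicate 3 that fold change was 0.72 (adjusted p 0.097), and without wild-type control replicate 1 or 2 or wild-type stress replicate 3 it was 0.18, 0.13 and 0.20. In vip1-1 it went from 21.6, 21.7 and 32.6 CPM to 8.65, 16.0 and 12.7 CPM (log2 fold change -1.02, SE 0.31, adjusted p 0.0349).

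These last falls in vip1-1 are the least firm of those called. The call of CDKG1 was lost without vip1-1 control replicate 1 or 3 (log2 fold changes -0.95 and -0.80, adjusted p 0.0702 and 0.0767) or vip1-1 stress replicate 1 or 3 (-0.74 and -0.99, adjusted p 0.102 and 0.07). That of MAT3 was lost without vip1-1 control replicate 1, 2 or 3 (-1.12, -1.12 and -0.80, adjusted p 0.0589, 0.0592 and 0.108), vip1-1 stress replicate 1 or 3 (-0.82 and -1.16, adjusted p 0.121 and 0.0697) or wild-type stress replicate 1 (-1.02, adjusted p 0.0505). Scaling by library totals lost both calls, with fold changes that were no smaller (-1.01 for CDKG1, adjusted p 0.391, and -1.13 for MAT3, adjusted p 0.342).

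**Figure D2:**
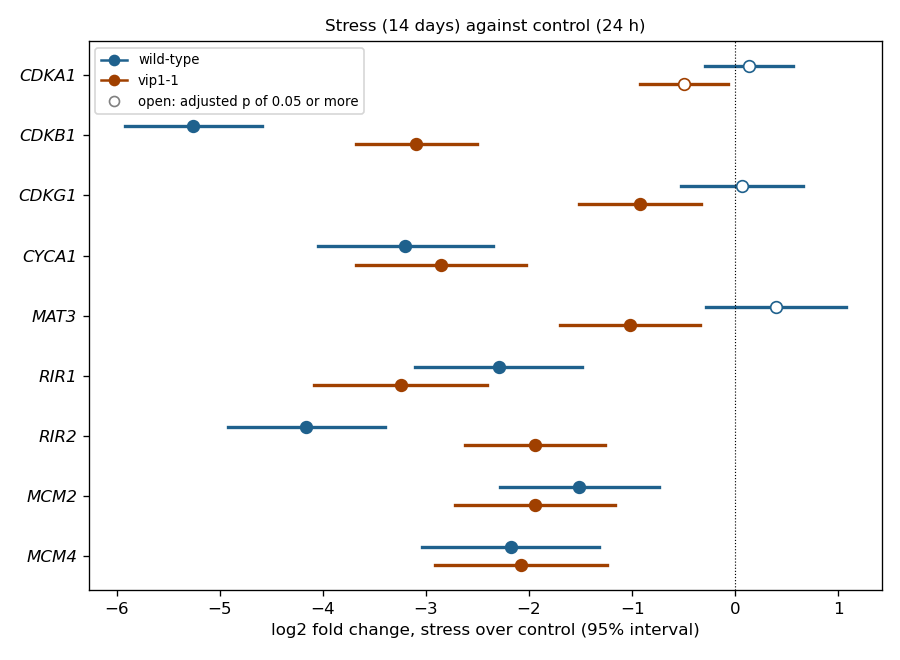
Log2 fold change of stress over control with its 95% interval for each gene, in wild-type (blue) and vip1-1 (brown), filled where the adjusted p was under 0.05. CDKB1 at -5.25 and -3.09 and RIR2 at -4.16 and -1.94 show the widest gaps between the genotypes.

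Between the genotypes, no difference in these genes was detectable in fresh cultures. In control, 0 of the 9 genes were called by edgeR's test, where 0.255% of all genes tested were called, 0.177% higher and 0.0785% lower in vip1-1. At an unadjusted p under 0.05 there were 0 of the 9, beside 6.5% of all genes. DESeq2 called 0 of the 9 and 1.84% of all genes. Log2 fold changes of vip1-1 over wild-type ran from -0.36 for CYCA1 (95% interval -1.13 to 0.40) to 0.46 for MCM2 (95% interval -0.29 to 1.20). The interval of CDKA1 was from -0.44 to 0.41. With library totals in place of TMM scaling the median of all genes rose by 0.58 on the log2 scale, and the values of CDKA1, CDKB1 and CYCA1 changed sign, to 0.64, 0.57 and 0.16. Leaving out wild-type control replicate 3 raised the number of all genes called in this comparison from 39 to 849, while a block for the replicate number lowered it to 12. The count among the 9 stayed at 0 in both fits.

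Under stress, CDKB1 and RIR2 were higher in vip1-1 than in wild-type. These were 2 of the 9 genes, where 1.56% of all genes were called, 0.975% higher and 0.589% lower in vip1-1. By edgeR's test 0 of the 9 were called lower, while 4 were lower at an unadjusted p under 0.05, as were 7.9% of all genes, and DESeq2 called 3 lower, as it did 3.61% of all genes. CDKB1 averaged 2.13 ± 0.652 CPM in wild-type, against 8.65 ± 0.756 CPM for vip1-1 (SD, n = 3 each). That is a 3.99-fold difference (95% interval 2.64 to 6.05, log2 fold change 2.00, SE 0.27, adjusted p 0.00554). RIR2 averaged 2.79 ± 1.19 CPM in wild-type, against 15.1 ± 2.38 CPM for vip1-1 (SD, n = 3 each). That is a 5.29-fold difference (95% interval 3.22 to 8.69, log2 fold change 2.40, SE 0.33, adjusted p 0.00554). All 3 vip1-1 libraries lay above all 3 wild-type libraries for both genes, and both were called without any single library, at adjusted p of at most 0.0421 and 0.037.

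Both calls were lost with library totals in place of TMM scaling, at 2.49 (adjusted p 0.0637) for CDKB1 and 2.85 (adjusted p 0.0523) for RIR2. That scaling raised the median of all genes by 0.56 on the log2 scale. The 6 abundant features held 26.0% to 66.5% of the counts in wild-type stress and 1.23% to 46.9% in vip1-1 stress, and their part in the differences was not tested.

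MAT3, CDKG1, RIR1 and CDKA1 had lower values in old cultures of vip1-1 than of wild-type, but did not pass edgeR's test. MAT3 averaged 30.1 ± 3.56 CPM in wild-type, against 12.5 ± 3.68 CPM for vip1-1 (SD, n = 3 each). Its log2 fold change was -1.27 (SE 0.31, adjusted p 0.0741). Without wild-type control replicate 3 its adjusted p was 0.0385, at the same -1.27. CDKG1 had -0.93 (SE 0.27, adjusted p 0.121), RIR1 -0.92 (SE 0.36, adjusted p 0.237) and CDKA1 -0.65 (SE 0.20, adjusted p 0.131). The value of RIR1 was -0.44 without wild-type stress replicate 3. With library totals in place of TMM scaling, the log2 fold changes shrank to -0.73 (MAT3), -0.38 (CDKG1), -0.32 (RIR1) and -0.07 (CDKA1). Their adjusted p in edgeR's test was then 0.698, 0.835, 0.862 and 0.972. DESeq2 called MAT3 (adjusted p 0.00619), CDKG1 (0.0211) and CDKA1 (0.00148) lower. For CYCA1, MCM2 and MCM4 the differences were -0.02, 0.03 and 0.38, with 95% intervals of -0.82 to 0.79, -0.73 to 0.79 and -0.45 to 1.21.

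**Figure D3:**
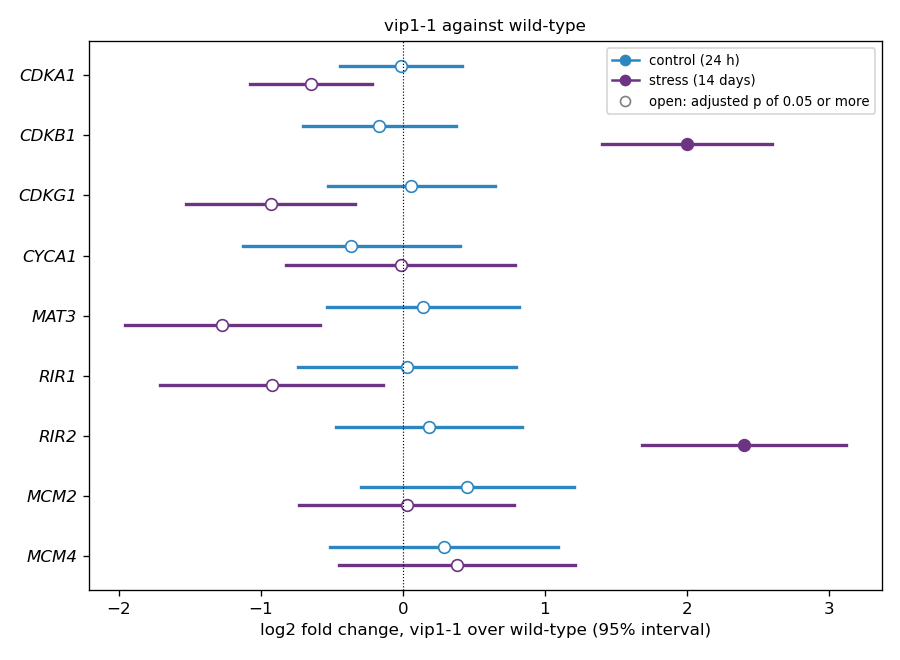
Log2 fold change of vip1-1 over wild-type with its 95% interval for each gene, in control (blue) and under stress (purple), filled where the adjusted p was under 0.05. Only CDKB1 (2.00) and RIR2 (2.40) under stress are filled, and every control interval includes 0.

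Whether the stress response itself differed between the strains was tested as the difference of the log2 fold changes, vip1-1 minus wild-type. By edgeR's test 0 of the 9 genes were called, where 0.0393% of all genes were, 0.0327% with a higher and 0.00654% with a lower response in vip1-1. An unadjusted p under 0.05 was reached by 5 of the 9, against 1223 of the 15286 genes tested, and DESeq2 called 2 of the 9 and 221 genes in all (1.45%). CDKB1 had a difference of 2.16 (95% interval 1.36 to 2.96, unadjusted p 8.6e-05, adjusted p 0.0821) and RIR2 one of 2.22 (95% interval 1.26 to 3.18, unadjusted p 0.000327, adjusted p 0.158). Without wild-type control replicate 3 both passed, at 2.25 (adjusted p 0.01) and 2.21 (adjusted p 0.0302). Without the other 11 libraries in turn the adjusted p of CDKB1 ranged from 0.0816 to 0.292, and that of RIR2 from 0.115 to 0.462. MAT3 at -1.41, CDKG1 at -0.99 and CDKA1 at -0.64 were the others with an unadjusted p under 0.05 (0.00772, 0.0237 and 0.0408). For RIR1 the difference was -0.95 (adjusted p 0.674), and -0.51 (adjusted p 0.972) without wild-type stress replicate 3.

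Ratios of FPKM within a library compare genes per length, and library size cancels out. The pairs below were picked after the values had been seen and carry no test. For RIR1 with RIR2 and for CDKB1 with CDKA1, the values under stress differ between the strains in opposite directions, so the choice of pair widens the gap. The ratio of RIR1 to RIR2 was 1.37, 1.10 and 1.21 in wild-type control and 1.18, 1.17 and 0.825 in vip1-1 control, so the subunit transcripts were near parity in fresh cultures of both strains. Under stress it was 2.38, 6.50 and 6.46 in wild-type and 0.479, 0.434 and 0.419 in vip1-1. The large-subunit transcript was thus the more abundant in all 3 wild-type stress libraries and the small-subunit transcript in all 3 vip1-1 stress libraries.

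CDKB1 stood at 1.46, 1.16 and 1.14 times CDKA1 in wild-type control and at 1.08, 1.17 and 1.15 times in vip1-1 control. Under stress this ratio was 0.0360, 0.0307 and 0.0207 in wild-type and 0.158, 0.182 and 0.228 in vip1-1. The strains overlapped in control and were well apart under stress. MAT3 and CDKG1, by contrast, kept close together: the ratio of MAT3 to CDKG1 stayed between 0.447 and 0.733 in all 12 libraries.

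**Figure D4:**
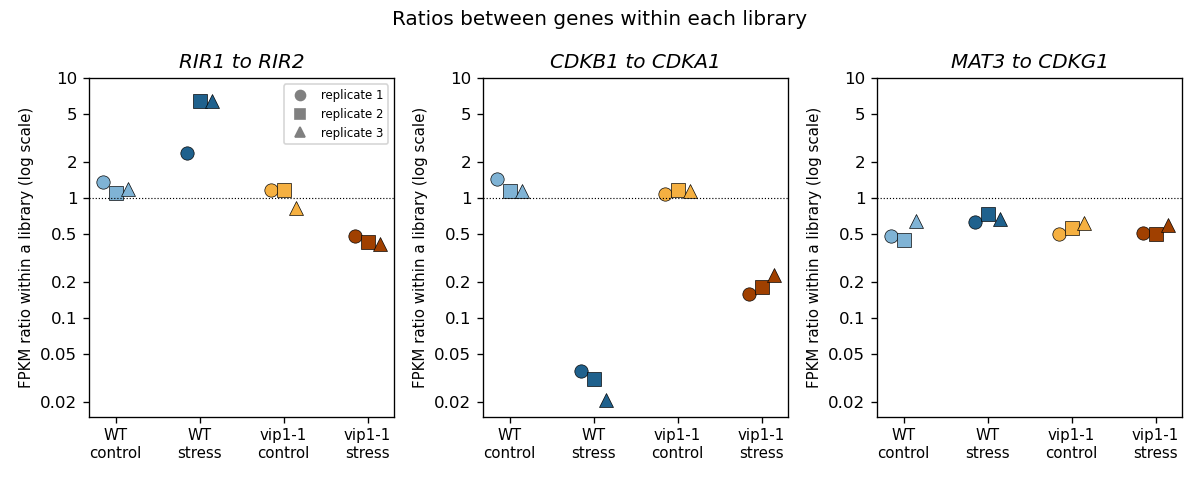
Ratio of deposited FPKM between pairs of genes within each library (log scale), by group, with marker shape for the replicate number and a dotted line at 1. Under stress the ratio of RIR1 to RIR2 lies above 2 in wild-type and under 0.5 in vip1-1, and CDKB1 to CDKA1 lies under 0.05 in wild-type and above 0.15 in vip1-1.

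The order of the genes by FPKM changed with culture age. CDKB1 ranked 1 and CDKA1 ranked 2 among the 9 in each of the 6 control libraries. Deposited FPKM of CDKB1 in control ran from 20.7 to 53.9 in wild-type and from 47.7 to 68.0 in vip1-1, and of CDKA1 from 14.2 to 47.3 and from 41.3 to 58.3, so these neighbours overlap across libraries. FPKM is not scaled with TMM, so these ranges do not compare the genotypes. With TMM scaling the log2 fold change of CDKB1 in control, vip1-1 over wild-type, was -0.16. Under stress CDKA1 ranked 1 in all 6 libraries, at 24.1 to 54.6 FPKM in wild-type and 21.8 to 45.2 in vip1-1. CDKB1 ranked 7, 7 and 9 in wild-type stress but 2, 4 and 3 in vip1-1 stress. RIR2 ranked 8, 9 and 8 in wild-type stress and 3, 3 and 2 in vip1-1 stress. CDKG1 ranked 2 in every wild-type stress library, and MAT3, the lowest of the 9 in every wild-type control library, ranked 3, 3 and 4 there.

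Over the 12 libraries, log2 CPM of CDKB1 and RIR2 correlated at Pearson's r 0.964, MCM2 and MCM4 at 0.948, CYCA1 and RIR1 at 0.938, and MAT3 and CDKG1 at 0.938. The libraries share their scaling and fall into fresh and old cultures, so the difference between conditions enters these values. After removal of group means, MAT3 and CDKG1 correlated at 0.882 and MCM2 and MCM4 at 0.705, while CDKB1 and RIR2 correlated at 0.281 and CYCA1 and RIR1 at 0.251. The other pairs then ran from -0.55 (CDKA1 and MAT3) to 0.765 (RIR1 and MCM4). With the mean standardised level of the other 8, RIR1 (0.961) and CYCA1 (0.943) correlated most closely and CDKA1 (0.42) and MAT3 (0.365) least.

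Among 8037 other genes with a mean of at least 10 CPM, the ones most like the mean pattern of the 9 over the 12 libraries were Cre06.g304500 (Pearson's r 0.982) and Cre09.g387875 (0.981), both without a name in the sources used here. Cre06.g304500 averaged 134 CPM in fresh and 60.3 CPM in old wild-type cultures, and 129.7 and 53.2 CPM in those of vip1-1. In the gene order of the RefSeq v5.5 annotation, none of the 9 genes overlaps another gene. Of the 17 immediate neighbours that were tested, 1 was called lower and 3 higher under stress in wild-type, beside 12.1% and 13.9% of all genes. In vip1-1, 1 was called lower and 2 higher, beside 11.0% and 12.2% of all genes.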

How the data were processed

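The authors deposited whole-number read counts per gene and, in a second table, FPKM values (fragments scaled by transcript length and library size) for the same genes. HISAT2 and StringTie are named in the submitters' processing notes. Versions, genome build, annotation and strand setting are not given in the sources used here. Per the labels' protocols, libraries were stranded and made from polyadenylated RNA. Columns were matched through the sample names in the labels' descriptions, and all were used.

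Counts were tested with edgeR 4.0.16 in R 4.3.3: filterByExpr by group, TMM, a model of group means over the 12 libraries, robust estimation of quasi-likelihood dispersions, and Benjamini-Hochberg adjustment over 15286 genes. Standard errors are the absolute log2 fold change over the root of F, and 95% intervals use the test's degrees of freedom. FPKM served for levels and ratios within a library, and its ranges over libraries are given as description only. Scripts were tested on simulated data. DESeq2 1.42.0 and the other alternatives are given in the closing section.

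The genes, lists and tests were chosen with earlier results of these data known. All 9 genes were named in each comparison, and like-patterned genes by correlation. The list of further replication genes was to come from names or proteins of the reference, which paired 0 of 17741 IDs with a symbol, so it holds 0 genes. No library duplicated another of its own group (chi-square per degree of freedom at least 12.8), and pairs across groups were not checked in this way. Deviations of same-numbered libraries correlated at 0.157, 0.185 and 0.403 between the control groups, so the numbers were taken to pair these libraries, on this check and on no statement in the labels. The other pairs of groups had at least 1 correlation under 0.1, though the replicate block applied the numbers to all groups.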

Additional observations from a re-analysis of the deposited data

How the results depend on the processing

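Every log2 fold change of the 9 genes that was called kept its direction in all alternatives run. Of the 9 genes, 5 to 6 were called under stress in wild-type over these alternatives and 3 to 9 in vip1-1, the 5 and the 3 with library totals alone. Between genotypes under stress, library totals gave 0, DESeq2 5 and the fit without replicate 3 of both control groups, which was chosen after seeing the data, 4 of the 9. For the difference of the responses, 1 was called with at least 10 counts in every library, 2 with DESeq2 and 2 without those replicates. Over all genes, library totals gave 1035, 904, 25, 68 and 0 calls for stress in wild-type, stress in vip1-1, genotype in control, genotype under stress and difference, beside 3979, 3544, 39, 239 and 6. The share of calls higher in vip1-1 then went from 69.2% to 84.0% in control and from 62.3% to 89.7% under stress, and with RLE size factors 5 of 5 differences were higher. Fits of only the groups compared gave 1972 for stress in wild-type and 8 for genotype in control. At least 10 counts in every library gave 23 for genotype in control and 13 for the difference. DESeq2 gave 282, 1079 and 221 for genotype in control, genotype under stress and difference, and the fit without both control replicates 3 gave 697, 592 and 480. With the replicate block the genes called in control went from 39 to 12 and for the difference to 3, and the calls among the 9 genes stayed at 6, 8, 0, 2 and 0. Leaving out 1 library at a time, 6 to 6, 6 to 9, 0 to 0, 2 to 3 and 0 to 2 of the 9 were called, and 2740 to 5263, 2168 to 4261, 9 to 849, 53 to 373 and 0 to 493 genes.

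Reversed signs arose only among values that were not called, and the cause was not tested. CDKG1 under stress in wild-type was at -0.020 with only the groups compared and at -0.13 to 0.19 without single libraries. Between genotypes in control, library totals gave 0.64 for CDKA1, 0.57 for CDKB1 and 0.16 for CYCA1. There CDKA1 was also at 0.015 with at least 10 counts and 0.10 without both control replicates 3. Without single libraries CDKA1 ranged from -0.10 to 0.13, CDKB1 from -0.26 to 0.00589, CDKG1 from -0.069 to 0.18, MAT3 from -0.080 to 0.47 and RIR1 from -0.15 to 0.31. Between genotypes under stress, CYCA1 was at 0.49 with library totals, 0.022 with at least 10 counts and -0.40 to 0.33 without single libraries. MCM2 was at -0.00307 with RLE, -0.020 with only the groups compared, -0.00381 with DESeq2 and -0.082 to 0.22 without single libraries. For the difference, MCM4 was at -0.46 without both control replicates 3 and -0.21 to 0.30 without single libraries, and CYCA1 at -0.039 to 0.69. The alternatives for further replication genes were not run because that list holds 0 genes. Wild-type stress levels rest on 12 to 65 counts per library for RIR2 and 16 to 48 for CDKB1.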
